A study of Mus musculus with 10 samples.

Results

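The 9 genes H19, Igf2, Igf2r, Igf2bp1, Igf2bp2, Igf2bp3, Lin28b, Hmga2 and Arid3a were followed by name among the 25579 genes of 8 RNA-seq libraries and in 2 lists of Pax5 peaks. H19 was selected on its TPM in the libraries of Pax5R31Q/- pro-B cells, which was high against that of Pax5+/+ cells, and the other genes were chosen around it with that comparison known. Values of the genes in that comparison are therefore a description without a test, as are all comparisons of H19.

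The study asked how an arginine-to-glutamine change in the paired domain, the DNA-binding part of the B cell transcription factor Pax5, alters gene expression and Pax5 binding in pro-B cells. RNA was sequenced from bone marrow cells of C57BL/6 mice with 4 genotypes and 2 libraries per genotype, namely Pax5+/+, Pax5+/- (1 null allele), Pax5R31Q/- (the R31Q allele and a null allele) and Pax5(fl/fl) Vav-Cre, which is called Pax5-/- here. The R31Q allele was edited with CRISPR/Cas9 in zygotes of mixed C57BL/6 and CBA origin and bred back to C57BL/6, and the RNA-seq cells were sorted ex vivo. Pax5 peaks came from 1 library of in vitro cultured Rag2(-/-) pro-B cells with wild-type Pax5 and 1 library of cultured Pax5R31Q/- pro-B cells, so the change in Pax5 cannot be told apart from the absence of Rag2 in the first library. These cells had been grown briefly on OP9 stromal cells with IL-7, and the antibody was raised to the paired domain, which holds the changed residue. Vav-Cre acts throughout the blood lineages, and the labels call the Pax5-/- cells progenitors and the others pro-B cells. The ages of the mice, and whether the 2 libraries of a genotype came from separate mice, are not given in the labels, so the p-values measure the spread between these libraries, which may be technical.

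H19 is a noncoding RNA that is transcribed from the maternal allele, next to Igf2, a growth factor gene that is transcribed from the paternal allele. Both are abundant in fetal tissues and are mostly shut down after birth. Lin28b blocks the maturation of let-7 microRNAs in fetal progenitors, which frees let-7 targets such as Hmga2, Arid3a and the Igf2bp genes, and this axis is known for giving fetal lymphocytes their own program.

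The microRNAs of this axis are shown because the seed, bases 2 to 8 in capitals, sets which transcripts they pair with. miR-675 is cut from the H19 transcript and its gene was listed at 0 in all 8 libraries. That gene lies inside H19 on the same strand, so reads there cannot be told apart from H19 reads. The libraries were made from poly(A)-selected RNA, so this 0 does not measure the mature miR-675. The 9 mature let-7 family members found in the RefSeq table (GRCm38.p6) shared 1 seed, of which a pair is shown.
mmu-miR-675-5p: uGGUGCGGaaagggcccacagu
mmu-miR-675-3p: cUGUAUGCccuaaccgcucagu
mmu-let-7a-5p: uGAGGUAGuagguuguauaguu
mmu-let-7i-5p: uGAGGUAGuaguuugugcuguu

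The 7 letters that pair with the let-7 seed, CTACCTC on the transcript strand, were found in the 3′ UTR of 7 of the 8 protein-coding genes followed here. Hmga2, Lin28b and Igf2bp1 each held 4 copies, Arid3a held 2, Igf2r, Igf2bp2 and Igf2bp3 each held 1, and Igf2 held none in its 3048 nt. Of 18833 3′ UTRs, 8.32% held the letters, and of the 6795 that were at least as long as the shortest among the 8 genes (1304 nt), 16.3% held them and 8 (0.118%) held 4 or more, among them Hmga2, Lin28b and Igf2bp1. Several of the 8 genes were chosen as known let-7 targets. A match describes the letters and not a site in use. A copy from each of the 7 genes is shown 5′ to 3′ on the transcript strand, with the 7 letters in capitals (GRCm38.p6).
Hmga2, chr10:120364224-120364245, minus strand: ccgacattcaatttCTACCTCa
Lin28b, chr10:45381022-45381043, minus strand: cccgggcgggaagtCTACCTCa
Arid3a, chr10:79953896-79953917, plus strand: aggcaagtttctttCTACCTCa
Igf2bp1, chr11:95961778-95961799, minus strand: ctgtgcgaagtaaaCTACCTCa
Igf2bp2, chr16:22059473-22059494, minus strand: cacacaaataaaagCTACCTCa
Igf2bp3, chr6:49086787-49086808, minus strand: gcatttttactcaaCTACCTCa
Igf2r, chr17:12683036-12683057, minus strand: acctgctccgtgccCTACCTCa

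Expression was given as TPM, the reads of a gene divided by its length and by the library total, so that levels can be compared between genes. The number of reads behind the values, worked out from the smallest steps in TPM, came to between 21637523 and 34506836 per library. Pax5 itself was at 418 and 444 TPM in the Pax5+/+ libraries, 272 and 287 in Pax5+/-, 306 and 293 in Pax5R31Q/-, and 1242 and 1409 in the libraries labelled Pax5-/-, where a value over the whole gene does not show which exons were read. All 12 pro-B cell markers reached 1 TPM in each genotype, with sums of 8740 and 9203 TPM in Pax5-/- and of 15231 to 18969 TPM in the other libraries. T and NK cell markers summed to 130 and 169 TPM in Pax5-/- and 59.2 to 77.5 TPM elsewhere, and erythroid markers to 76.1 and 120 TPM in Pax5-/- and 126 to 197 TPM elsewhere. The summed level of 10 stem and progenitor markers was 374 to 414 TPM in Pax5-/- and 33.5 to 40.9 TPM in the other libraries, and the summed level of 9 myeloid markers varied most between the 2 Pax5-/- libraries, at 2291 and 456 TPM. In such bulk samples, fewer cells of a type and less RNA per cell cannot be told apart.

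The 9 genes ranged from 0 to 59.0 TPM. Arid3a, Igf2bp3 and Igf2r were above 11 TPM in every library, H19, Igf2bp2 and Hmga2 were weakly expressed, and Igf2, Lin28b and Igf2bp1 were at or near 0 throughout. Of the 9 genes, 6 reached 1 TPM in at least 1 library and entered the limma fit of log2(TPM + 1), where p-values were adjusted over all 13436 genes tested. H19 was fitted with the rest but not tested, which left 5 genes. In Pax5-/- against Pax5+/+, 3 of 5 genes had an adjusted p under 0.05, with Igf2bp2 and Arid3a higher and Igf2r lower, and 35.9% of all genes tested passed this threshold. In Pax5+/- against Pax5+/+, limma called 0 of 5 genes, 1 of them (Igf2bp2) had an unadjusted p under 0.05, voom on the recovered reads also called 0, and 0.0223% of all genes passed. In Pax5R31Q/- against Pax5+/-, which sets the mutant allele against a wild-type allele at the same number of alleles, 1 of 5 genes passed, Arid3a, beside 0.618% of all genes. In Pax5R31Q/- against Pax5-/-, 2 of 5 passed, Igf2r and Arid3a, beside 34.6% of all genes. The smallest p of an exact permutation test with 2 libraries against 2 is 0.333, and these calls depend on the spread that limma pools over genes. The median log2 difference of all genes was -0.11 in Pax5-/- against Pax5+/+ and 0.13 in Pax5R31Q/- against Pax5-/-.

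**Figure D1:**
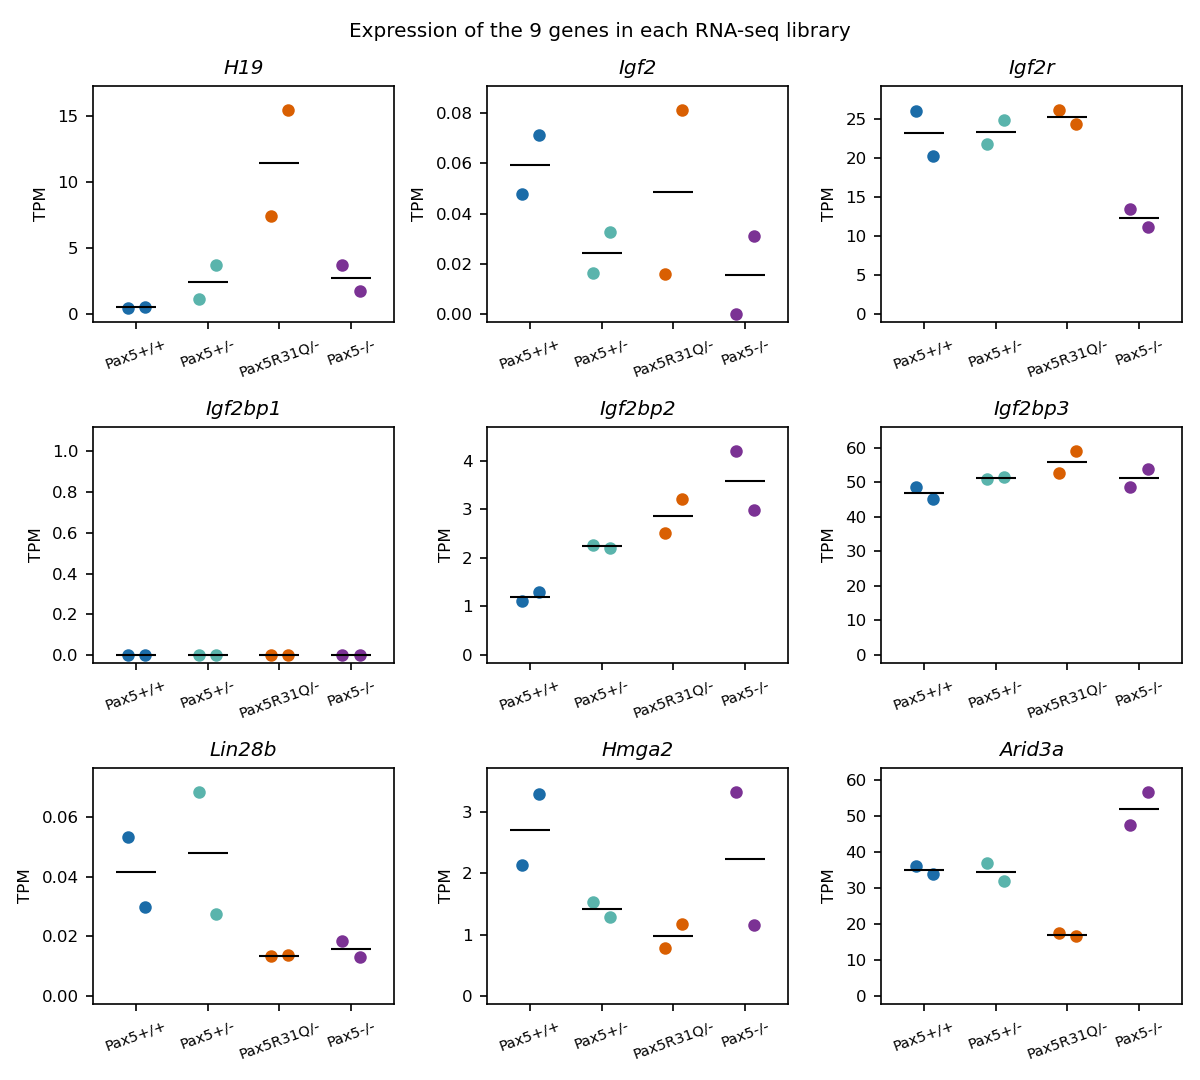
TPM of each of the 9 genes (vertical axes, each with its own scale) in the 2 libraries of each of 4 genotypes (horizontal axis); points are libraries and bars are means. H19 is highest in the Pax5R31Q/- libraries at 7.47 and 15.4 TPM, Arid3a is lowest there at 17.4 and 16.5 TPM, and Igf2bp1 is at 0 in all 8.

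The H19 gene occupies 142575530 to 142578146 of chromosome 7 (minus strand, GRCm38.p6). It was at 0.471 and 0.528 TPM in the Pax5+/+ libraries, which is 15 reads in each, and at 1.16 and 3.74 TPM in Pax5+/-. The Pax5-/- libraries gave 3.75 and 1.76 TPM, and the Pax5R31Q/- libraries 7.47 and 15.4 TPM, or 238 and 481 reads. The order of the mean levels was Pax5+/+, Pax5+/-, Pax5-/- and Pax5R31Q/-. Only the middle pair overlapped, and the libraries of a genotype differed up to 3.23-fold in Pax5+/-, 2.13-fold in Pax5-/- and 2.07-fold in Pax5R31Q/-. The mean in Pax5R31Q/- (11.5 ± 5.64 TPM, SD, n = 2) was 22.9 times that in Pax5+/+ (0.500 ± 0.0403 TPM), 4.68 times that in Pax5+/- (2.45 ± 1.83 TPM) and 4.16 times that in Pax5-/- (2.76 ± 1.40 TPM). On the log2(TPM + 1) scale, which understates changes of weak genes, H19 differed by 2.98 (SE 0.46) between Pax5R31Q/- and Pax5+/+.

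The low Pax5+/+ values of H19 were part of its selection, so its comparisons of the other genotypes with Pax5+/+ are descriptions as well. On the log2(TPM + 1) scale H19 differed by 1.27 (SE 0.46) between Pax5-/- and Pax5+/+ and by 1.09 (SE 0.46) between Pax5+/- and Pax5+/+. With a pseudocount of 0.1 the first difference was 2.16 and the second 1.88. The second was 1.66 without Pax5+/- replicate 1 and 0.53 without Pax5+/- replicate 2, the library with more H19.

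Markers of other cells were read beside H19. In Pax5+/- and in Pax5-/-, the library with more H19 also had the higher summed level of the 9 myeloid markers, at 1560 against 683 TPM and 2291 against 456 TPM, and none of these markers was at 0. The Pax5R31Q/- library with 15.4 TPM of H19 had 966 TPM of myeloid markers and the one with 7.47 TPM had 1014 TPM, against 627 and 404 TPM in Pax5+/+. Stromal cells can express H19, and the summed level of 12 stromal markers was 42.2 and 44.3 TPM in Pax5R31Q/-, 42.9 and 45.2 TPM in Pax5+/+, 35.1 and 38.4 TPM in Pax5+/- and 59.2 and 41.6 TPM in Pax5-/-. In Pax5+/-, Pax5R31Q/- and Pax5-/-, the library with more H19 had the higher stromal sum, and both Pax5+/+ libraries had 15 reads of H19. Col1a1, a collagen gene of stromal cells, was at 9.15 and 7.28 TPM in Pax5+/+ and 1.14 and 0.933 TPM in Pax5+/-. It was at 2.29 and 3.80 TPM in Pax5R31Q/- and 5.55 and 0.573 TPM in Pax5-/-. Col1a1 was thus higher in the library with more H19 in Pax5R31Q/- and Pax5-/-, and lower in Pax5+/-. The 7 endothelial markers summed to 166 and 148 TPM in Pax5R31Q/- and 162 and 186 TPM in Pax5-/-, above the 136 and 109 TPM in Pax5+/+ without overlap, and to 124 and 126 TPM in Pax5+/-. In Pax5R31Q/-, 3 of these 7 markers reached 1 TPM. Kdr, a gene of endothelial cells, was at 1.43 and 1.90 TPM in Pax5R31Q/- and at 2.76 and 2.55 TPM in Pax5+/+. Cdh5, another such gene, was at 0.648 and 0.424 TPM against 1.57 and 1.17 TPM. The higher sum in Pax5R31Q/- thus came from other markers. The 7 pre-B cell markers summed to 293 and 247 TPM in Pax5R31Q/- and 227 and 364 TPM in Pax5-/-, below the 417 and 375 TPM in Pax5+/- and the 456 and 493 TPM in Pax5+/+ without overlap. The part of myeloid, stromal, endothelial and pre-B cells in the level of H19 was not tested. Both Pax5R31Q/- libraries lay within the range of the Pax5+/+ libraries in their summed stem and progenitor markers. Flt3, a receptor of progenitors, did not follow that sum. It was at 9.79 and 9.54 TPM in Pax5+/+, 18.8 and 21.6 TPM in Pax5+/-, and 23.6 and 23.9 TPM in Pax5R31Q/-. In Pax5-/- it was at 385 and 356 TPM.

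Of 14 listed neighbours in the H19 and Igf2 region, 8 were tested, and none of them passed in the comparison of the mutant with the wild-type allele. In Pax5-/- against Pax5+/+, 4 of them were higher and 0 lower by limma (5 had an unadjusted p under 0.05), beside 35.9% of all genes called, with a median log2 difference of 0.77. Between Pax5R31Q/- and Pax5+/-, limma and voom each called 0 of the 8 (1 had an unadjusted p under 0.05 by limma). Against Pax5-/-, 5 were lower and 0 higher in Pax5R31Q/-, beside 34.6% of all genes called. Lsp1, a leukocyte actin-binding protein, was at 271 and 342 TPM in Pax5+/+, 247 and 229 TPM in Pax5R31Q/- and 806 and 830 TPM in Pax5-/-. Its difference was 1.42 (SE 0.14, adjusted p = 0.000302 by limma) in Pax5-/- against Pax5+/+. Tspan32, a tetraspanin of blood cells, was 1.08 higher (SE 0.12, adjusted p = 0.000388) in the same comparison, and Tnni2, a troponin subunit of muscle, 1.75 higher (SE 0.24, adjusted p = 0.00121).

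By Pearson correlation of log2(TPM + 1) over the 8 libraries, among 10788 genes with a mean of at least 5 TPM in a genotype, 5 genes reached r of 0.9 with H19. They were Mrpl23 (r = 0.929), Slc43a1 (r = 0.905), Rgs10 (r = 0.903), Sytl2 (r = 0.902) and Hint1 (r = 0.901). The libraries share a genotype in pairs, and H19 was chosen for its genotype pattern, so these are descriptions of 8 points. Mrpl23, which encodes a mitochondrial ribosomal protein and lies beside H19 on the chromosome, moved over a narrow range from 38.7 to 54.0 TPM, with the Pax5R31Q/- libraries highest at 50.1 and 54.0 TPM. Its difference between Pax5R31Q/- and Pax5+/- was 0.29 (SE 0.13, adjusted p = 0.616 by limma). Rgs10, a regulator of G protein signalling, had a wide range, with 29.9 and 26.1 TPM in Pax5+/+, 69.6 and 55.1 TPM in Pax5+/-, 56.3 and 48.9 TPM in Pax5-/-, and 171 and 176 TPM in Pax5R31Q/-. Sytl2, which acts in vesicle trafficking, had 3.62 and 3.43 TPM in Pax5+/+ and 16.5 and 17.6 TPM in Pax5R31Q/-, also its lowest and highest pairs.

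Igf2, the ligand, was barely detected. It fell below the filter and was not tested, and differences cannot be judged at this depth. It occupies 142650768 to 142666816 of chromosome 7, and 18 reads fell on it in all 8 libraries together. No library had more than 5 reads or 0.0811 TPM, and that highest value belonged to a Pax5R31Q/- library, where the other library had 1 read. The level of H19 thus stood beside an Igf2 level of 0.0159 and 0.0811 TPM in Pax5R31Q/- and of 0.0476 and 0.0712 TPM in Pax5+/+. Igf2os, antisense to Igf2, was at 0.0208 TPM or less.

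Igf2r, on chromosome 17 from 12682406 to 12769706, encodes the receptor that takes up and degrades Igf2 and that also sorts lysosomal enzymes. It was at 26.0 and 20.3 TPM in Pax5+/+, 21.8 and 24.9 TPM in Pax5+/-, 26.1 and 24.4 TPM in Pax5R31Q/-, and 13.4 and 11.2 TPM in Pax5-/-. The first 3 genotypes overlapped and Pax5-/- lay below all of them. The difference was -0.86 (SE 0.17, adjusted p = 0.00659 by limma) in Pax5-/- against Pax5+/+, and Pax5R31Q/- was higher than Pax5-/- by 0.99 (SE 0.17, adjusted p = 0.00418). A fit with only the Pax5-/- and Pax5+/+ libraries gave an adjusted p of 0.0679 for the first. Between Pax5R31Q/- and Pax5+/- the difference was 0.11 with an interval of -0.29 to 0.50. Airn, a noncoding RNA that silences the paternal Igf2r allele, overlaps Igf2r on the other strand and was at 0.182 and 0.0970 TPM in Pax5-/- and at 0.471 to 1.18 TPM in the other genotypes. Airn differed by 0.82 between Pax5R31Q/- and Pax5-/- (SE 0.26, adjusted p = 0.0433 by limma) and by -0.68 between Pax5-/- and Pax5+/+ (SE 0.26, adjusted p = 0.0759), in the same directions as Igf2r. As counting by strand is not stated, reads in the overlap cannot be assigned.

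Igf2bp1, Igf2bp2 and Igf2bp3 encode relatives that bind and stabilize RNA, and in these cells they differed in level far more than any of them differed between genotypes. Igf2bp1, on chromosome 11 from 95957163 to 96005944, had 0 reads in every library, which allows up to 0.0253 to 0.0357 TPM per library (3 reads, counting error only). Igf2bp3, on chromosome 6 from 49085218 to 49215469, was at 48.6 and 45.3 TPM in Pax5+/+, 50.9 and 51.5 TPM in Pax5+/-, 52.7 and 59.0 TPM in Pax5R31Q/-, and 48.6 and 53.9 TPM in Pax5-/-. It was thus well expressed in bone marrow pro-B cells of all 4 genotypes. Its differences between genotypes were small, each with an interval of -0.15 to 0.40 in the 4 tested comparisons, and no adjusted p by limma was under 0.439. Malsu1 overlaps it on the other strand, at 40.0 to 49.2 TPM, so some reads of either gene could belong to the other.

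Igf2bp2, on chromosome 16 from 22059009 to 22163299, was the weaker of the expressed relatives, and its lowest values were those of Pax5+/+. It was at 1.11 and 1.30 TPM in Pax5+/+ and at 2.27 and 2.21 TPM in Pax5+/-. The Pax5R31Q/- libraries had 2.52 and 3.22 TPM and the Pax5-/- libraries 4.19 and 2.99 TPM. Each library outside Pax5+/+ lay above both Pax5+/+ libraries, and only Pax5R31Q/- and Pax5-/- overlapped. The difference between Pax5-/- and Pax5+/+ was 1.05 (SE 0.20, adjusted p = 0.00538 by limma), and it stayed under 0.05 in 10 of 10 alternatives. The difference between Pax5+/- and Pax5+/+ was 0.56 (SE 0.20, adjusted p = 0.665), and between Pax5R31Q/- and Pax5+/- it was 0.25 (95% interval -0.21 to 0.71). Pax5R31Q/- and Pax5+/+ differed by 0.81 (SE 0.20), without a test.

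Lin28b, on chromosome 10 from 45376617 to 45486314, had between 1 and 5 reads per library and 17 in all, with 0.0682 TPM at most. Its highest values came from a Pax5+/- and a Pax5+/+ library, and both Pax5R31Q/- libraries had 1 read, as did both Pax5-/- libraries. Lin28b fell below the filter and was not tested, and differences cannot be judged from so few reads.

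Hmga2, on chromosome 10 from 120361268 to 120476469, encodes an architectural chromatin protein of fetal stem cells. It was at 2.13 and 3.29 TPM in Pax5+/+, 1.52 and 1.30 TPM in Pax5+/-, 0.790 and 1.17 TPM in Pax5R31Q/-, and 3.32 and 1.15 TPM in Pax5-/-. The Pax5+/+, Pax5+/- and Pax5R31Q/- libraries descended without overlap, and the Pax5-/- pair covered nearly the whole range with a 2.89-fold gap between its libraries. None of the 4 differences tested passed by limma (0 had an unadjusted p under 0.05, and voom called 0), the nearest being Pax5R31Q/- against Pax5-/- at -0.63 (95% interval -1.41 to 0.15, adjusted p = 0.177 by limma). Without the lower Pax5-/- library this difference was -1.13 (adjusted p = 0.0140), and the difference between Pax5-/- and Pax5+/+ turned from -0.27 to 0.24. The retained Pax5-/- library is the one with 2291 TPM of myeloid markers, whose part in the level of Hmga2 was not tested. Pax5R31Q/- and Pax5+/+ differed by -0.89 (SE 0.33), without a test. Hmga2 overlaps several noncoding RNAs on the other strand.

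Arid3a, on chromosome 10 from 79927043 to 79955018 (plus strand), encodes a DNA-binding protein of the AT-rich interaction family that promotes early B cell development and is a let-7 target. It was at 36.0 and 33.7 TPM in Pax5+/+ and 36.8 and 31.8 TPM in Pax5+/-. Pax5R31Q/- libraries had 17.4 and 16.5 TPM and Pax5-/- libraries 47.4 and 56.5 TPM. Pax5+/+ and Pax5+/- overlapped, Pax5R31Q/- lay below every other library and Pax5-/- above every other library. The mean in Pax5R31Q/- (17.0 ± 0.597 TPM, SD, n = 2) was 0.495 of that in Pax5+/- (34.3 ± 3.51 TPM) and 0.327 of that in Pax5-/- (51.9 ± 6.43 TPM).

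The mutant and the null genotype thus lay on opposite sides of the genotypes with wild-type Pax5. On the log2(TPM + 1) scale, Arid3a differed by -0.97 in Pax5R31Q/- against Pax5+/- (SE 0.14, adjusted p = 0.0370 by limma), by 0.56 in Pax5-/- against Pax5+/+ (SE 0.14, adjusted p = 0.0178) and by -1.55 in Pax5R31Q/- against Pax5-/- (SE 0.14, adjusted p = 0.000232). The last held in 10 of 10 alternatives, with an adjusted p of at most 0.00914. The first had its adjusted p at 0.0633 without the filter on low TPM, at 0.0609 with only these 2 genotypes in the fit and at 0.203 to 0.345 with any 1 of the 4 libraries left out, while its size stayed between -0.87 and -1.07. The second had an adjusted p of 0.0909 with only 2 genotypes in the fit and of 0.0755 without Pax5+/+ replicate 2. The mean in Pax5R31Q/- was 0.486 of that in Pax5+/+, without a test. Pax5-/- differs from the other genotypes in its progenitor, pro-B, T and NK and erythroid markers as given above, and their part in the differences of Igf2r, Igf2bp2 and Arid3a was not tested. The pre-B cell markers, at 247 to 293 TPM in Pax5R31Q/- and 375 to 417 TPM in Pax5+/-, were lower beside the lower Arid3a. The stem and progenitor sum was also lower in Pax5R31Q/- than in Pax5+/- without overlap. The endothelial, stromal, and T and NK cell sums were higher without overlap. The part of these markers was not tested either.

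**Figure D2:**
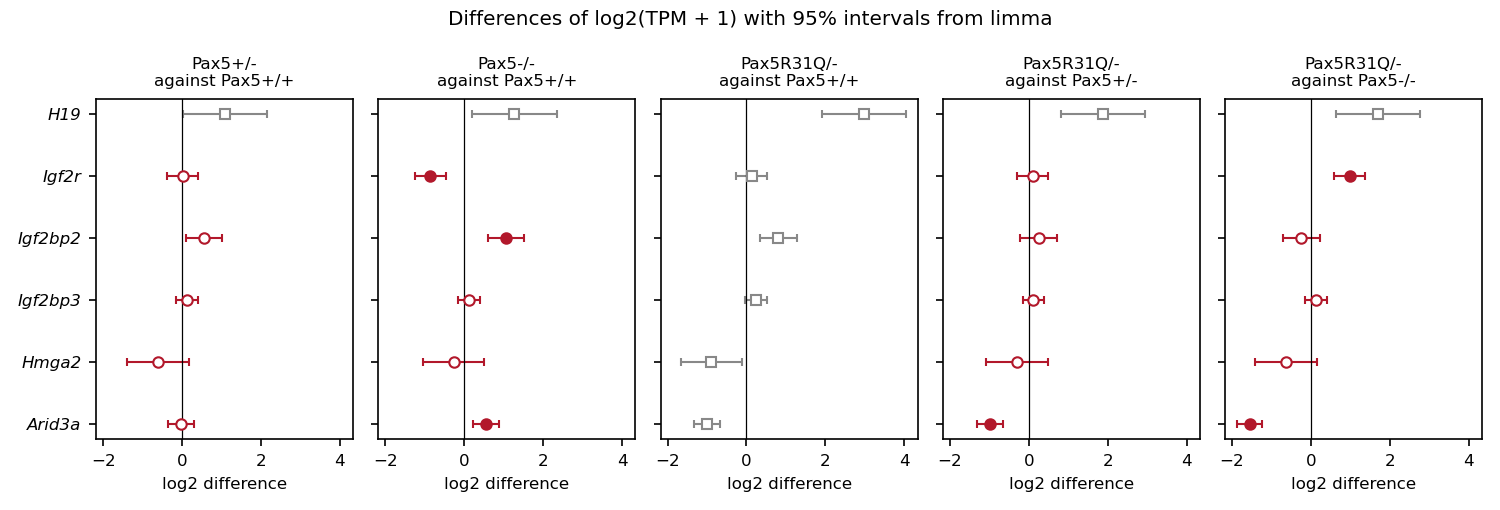
Differences of log2(TPM + 1) for the 6 genes that passed the filter (rows) in 5 comparisons of genotypes (panels), with 95% intervals from limma; filled circles have an adjusted p under 0.05, open circles do not, and grey squares were not tested. The points of Arid3a lie at -0.97 for Pax5R31Q/- against Pax5+/- and at -1.55 for Pax5R31Q/- against Pax5-/-.

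Pax5 peaks were compared by position only, since the lists give no height and hold 1 library per genotype. A peak of the Pax5+/+ list was called met when a peak of the Pax5R31Q/- list overlapped it by at least 1 bp. Within the 9 genes or 50 kb of them lay 30 Pax5+/+ peaks, at 7 of the genes, and 89.8% of all 24355 placed genes had such a peak. Of the 30 peaks, 11 (36.7%) were not met in the Pax5R31Q/- list, beside 62.5% of all 41983 Pax5+/+ peaks. Of the 26 peaks that were less than 50% repeat-masked, 7 were not met, beside 32.6% of such peaks in the whole list. A peak lay within 1 kb of the start site at Igf2r, Igf2bp3 and Arid3a in both lists. These are the 3 most strongly expressed of the 9 genes and 3 of the 6 with at least 1 TPM, and among all 12893 placed genes at that level 66.8% had a Pax5+/+ peak at a start site.

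Around Arid3a, 10 of 10 Pax5+/+ peaks were met, 3 of them in the gene, and the Pax5R31Q/- list held 2 more. The peak at the Arid3a start site spanned 1247 bp in the Pax5+/+ list (chr10:79926379-79927625) and 1631 bp in the Pax5R31Q/- list (chr10:79926334-79927964). Without Arid3a, 11 of 20 peaks (55.0%) were not met. The 4 Pax5+/+ peaks in Igf2bp2, a pair in exons and a pair in introns, were not met, and the only met peak nearby lay 49250 bp away in Senp2. In Igf2r the peaks at the start site and in an intron, 14250 bp downstream of the start site, were met, and another intronic peak was not. In Igf2bp3 a pair of Pax5+/+ peaks at the start site met a single Pax5R31Q/- peak of 1687 bp, and 1 intronic peak was not met. The 3 Pax5+/+ peaks within 50 kb of Lin28b were not met, and they were 97.4% to 100% repeat-masked.

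H19 and Hmga2 held no peak. The nearest Pax5+/+ peak to H19 lay 41639 bp away in an intron of Mrpl23 (chr7:142533006-142533891) and was met, and beside it, 40149 bp from H19, the Pax5R31Q/- list held a peak that the other list lacked (chr7:142535076-142535381). The nearest peak to Igf2 lay 53804 bp away and was met. The nearest peaks to Hmga2 lay 55063 bp and 81720 bp away and were both not met.

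**Figure D3:**
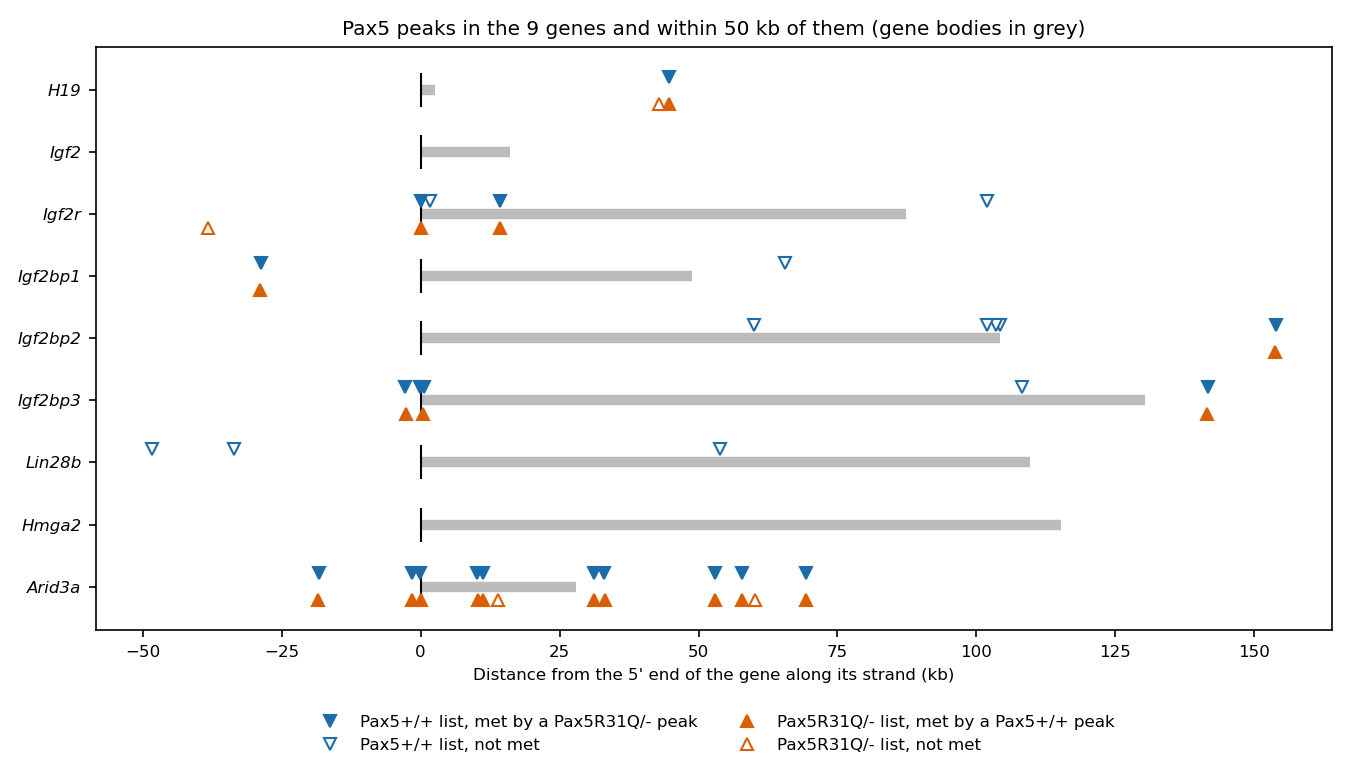
Midpoints of Pax5 peaks in the 9 genes and up to 50 kb around them, as distance in kb from the 5′ end of each gene along its strand; downward triangles are the Pax5+/+ list, upward triangles the Pax5R31Q/- list, filled symbols have a partner in the other list, and grey bars are gene bodies. All 10 Pax5+/+ peaks at Arid3a are filled, the 4 in Igf2bp2 are open, and the body of H19 holds none.

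The sequences of 4 peak windows are shown as examples. They are a met and a Pax5R31Q/- only peak in Arid3a introns, and a peak in an Igf2bp2 intron that was not met. The last is the Pax5R31Q/- only peak nearest to H19. Each window is 300 bases of the plus strand of GRCm38 around the midpoint of the peak. Capitals mark matches on either strand to GCANCCA, letters from one end of the known Pax5 recognition sequence, and GCGTGAC, from the other end, which these 4 windows lack. No match overlaps another. These examples do not stand for met and unmet peaks as groups. In Igf2r, the window of the met intronic peak held no match. The window of the intronic peak there that was not met held 1, to GCANCCA. An unmet peak 14524 bp from Igf2r held 3.
Arid3a, both lists, chr10:79938180-79938479: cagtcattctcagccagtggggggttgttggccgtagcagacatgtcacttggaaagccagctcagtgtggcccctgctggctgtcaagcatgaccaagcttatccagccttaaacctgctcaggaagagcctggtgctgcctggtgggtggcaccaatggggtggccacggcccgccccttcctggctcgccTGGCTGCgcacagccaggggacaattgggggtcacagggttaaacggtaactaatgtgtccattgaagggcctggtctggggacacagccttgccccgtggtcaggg
Arid3a, Pax5R31Q/- list only, chr10:79940764-79941063: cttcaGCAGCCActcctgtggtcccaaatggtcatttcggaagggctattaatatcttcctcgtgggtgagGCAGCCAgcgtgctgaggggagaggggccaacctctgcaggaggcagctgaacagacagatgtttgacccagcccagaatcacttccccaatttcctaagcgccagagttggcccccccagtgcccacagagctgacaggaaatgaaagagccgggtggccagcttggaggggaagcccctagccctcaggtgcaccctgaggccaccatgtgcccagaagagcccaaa
Igf2bp2, Pax5+/+ list only, chr16:22061292-22061591: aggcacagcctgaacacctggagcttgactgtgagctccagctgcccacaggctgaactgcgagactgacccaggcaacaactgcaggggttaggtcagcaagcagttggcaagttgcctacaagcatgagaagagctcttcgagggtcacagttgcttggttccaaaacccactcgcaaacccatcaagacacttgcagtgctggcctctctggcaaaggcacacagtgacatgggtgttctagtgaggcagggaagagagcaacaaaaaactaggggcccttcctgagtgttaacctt
near H19, Pax5R31Q/- list only, chr7:142535079-142535378: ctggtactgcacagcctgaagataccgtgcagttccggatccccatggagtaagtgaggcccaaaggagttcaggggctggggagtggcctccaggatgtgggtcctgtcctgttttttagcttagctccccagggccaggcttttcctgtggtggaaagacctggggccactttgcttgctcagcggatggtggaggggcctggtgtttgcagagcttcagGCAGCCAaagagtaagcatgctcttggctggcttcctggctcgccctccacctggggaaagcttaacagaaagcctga

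In windows of this length, GCANCCA was present in 7 of the 30 Pax5+/+ peaks at the 9 genes (23.3%), beside 14.5% of all Pax5+/+ peaks. Over the whole Pax5+/+ list it was in 24.2% of met peaks and 8.77% of those not met. Peaks at the 9 genes were more often met than those of the whole list, so the 14.5% is not a like comparison. GCANCCA was in 7 of the 22 Pax5R31Q/- peaks (31.8%), beside 24.4% of all Pax5R31Q/- peaks. Of the 4 Pax5R31Q/- peaks at these genes without a partner, 2 held it, and both are shown above. GCGTGAC was in 0 of the 30 and 0 of the 22 windows, beside 3.78% and 5.97% of all peaks. A missing match says only that these letters are not in the window.

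Of 30 listed genes of insulin-like growth factor signalling, 15 were tested, and 8 were lower and 2 higher in Pax5-/- than in Pax5+/+ by limma, where 35.9% of all genes were called. Their median log2 difference was -0.51 beside -0.11 for all genes. Compared with Pax5-/-, 6 were higher and 1 lower in Pax5R31Q/-, where 34.6% of all genes were called. Between Pax5R31Q/- and Pax5+/- 0 of 15 passed limma, 2 had an unadjusted p under 0.05, voom called 1 (Pik3r1), and the median was 0.00. Between Pax5+/- and Pax5+/+, limma and voom each called 0 genes of this list and of all other lists, with 0 to 3 genes per list at an unadjusted p under 0.05 by limma. Igf1r, the receptor that signals for Igf1 and Igf2, was at 20.2 and 21.0 TPM in Pax5+/+, at a mean of 18.7 ± 1.84 TPM (SD, n = 2) in Pax5R31Q/-, and at 7.78 and 6.25 TPM in Pax5-/-. The difference of Igf1r was -1.44 in Pax5-/- against Pax5+/+ (SE 0.15, adjusted p = 0.000387 by limma) and 1.30 in Pax5R31Q/- against Pax5-/- (SE 0.15, adjusted p = 0.000808).

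Irs2 and Gab1, which act behind the receptor, were also lowest in Pax5-/-. Irs2, an insulin receptor substrate, was at 33.5 and 39.7 TPM in Pax5+/+, 51.5 and 38.1 TPM in Pax5R31Q/- and 6.40 and 6.19 TPM in Pax5-/- (difference -2.36, SE 0.17, adjusted p = 6.58e-05 by limma for Pax5-/- against Pax5+/+). Gab1, a docking protein, was at 24.1 and 22.7 TPM, 29.3 and 24.5 TPM, and 5.97 and 4.55 TPM in the same genotypes (difference -1.97, SE 0.16, adjusted p = 0.000120). Foxo1, a transcription factor that growth factor signalling keeps out of the nucleus, differed by -1.49 (SE 0.17, adjusted p = 0.000455). Pik3r1, the regulatory subunit of the lipid kinase PI3K, went the other way, with 54.0 and 45.1 TPM in Pax5+/+, 65.7 and 68.2 TPM in Pax5+/-, 115 and 111 TPM in Pax5R31Q/- and 132 and 157 TPM in Pax5-/-. The 4 genotypes of Pik3r1 did not overlap. It was 1.52 higher in Pax5-/- than in Pax5+/+ (SE 0.13, adjusted p = 0.000143) and the difference between Pax5R31Q/- and Pax5+/- was 0.74 (SE 0.13, adjusted p = 0.0697).

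Genes that make or are held down by let-7 were read beside Lin28b. Of 25 listed genes of Lin28 function and let-7 processing, 19 were tested, and 1 was higher and 2 lower in Pax5-/- than in Pax5+/+ by limma, each by less than 2-fold, with a median of -0.10 and beside 35.9% of all genes called. Between Pax5R31Q/- and Pax5+/-, limma called 0 of the 19 and voom 0 of the 18 it tested, and 0 had an unadjusted p under 0.05 by limma. Of 26 listed let-7 targets, 23 were tested, and 6 were higher and 5 lower in Pax5-/- than in Pax5+/+, beside the same 35.9% of all genes, with a median of -0.18. Between Pax5R31Q/- and Pax5+/-, limma and voom each called 0 of the 23, and 1 had an unadjusted p under 0.05 by limma.

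Among the let-7 targets, the largest differences between Pax5-/- and Pax5+/+ were those of Mycl, Ccnd1, Ccnd2, Ezh2 and Cdk6. Mycl, a member of the Myc family, was at 0.961 and 0.638 TPM in Pax5+/+, 2.84 and 2.04 TPM in Pax5R31Q/- and 8.54 and 12.5 TPM in Pax5-/- (difference 2.67, SE 0.23, adjusted p = 0.000145 by limma for Pax5-/- against Pax5+/+). Ccnd2, a cyclin of the G1 phase, was at 81.3 and 85.1 TPM, 168 and 148 TPM, and 357 and 360 TPM in the same genotypes (difference 2.10, SE 0.12, adjusted p = 2.59e-05). Cdk6, its kinase partner, was at 86.5 and 68.4 TPM in Pax5+/+, 134 and 167 TPM in Pax5+/-, 219 and 198 TPM in Pax5R31Q/-, and 169 and 263 TPM in Pax5-/-. Cdk6 was 1.44 higher in Pax5-/- than in Pax5+/+ (SE 0.22, adjusted p = 0.00215), and its Pax5R31Q/- and Pax5-/- libraries overlapped. Ccnd1 rose by 2.61 (SE 0.33, adjusted p = 0.000778). Ezh2, the histone methyltransferase of a Polycomb complex, was lower instead, at 101 and 156 TPM in Pax5-/- against 439 and 332 TPM in Pax5+/+ (difference -1.60, SE 0.22, adjusted p = 0.00122). The part of the markers that separate Pax5-/- from the other genotypes in these lists was not tested.

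**Figure D4:**
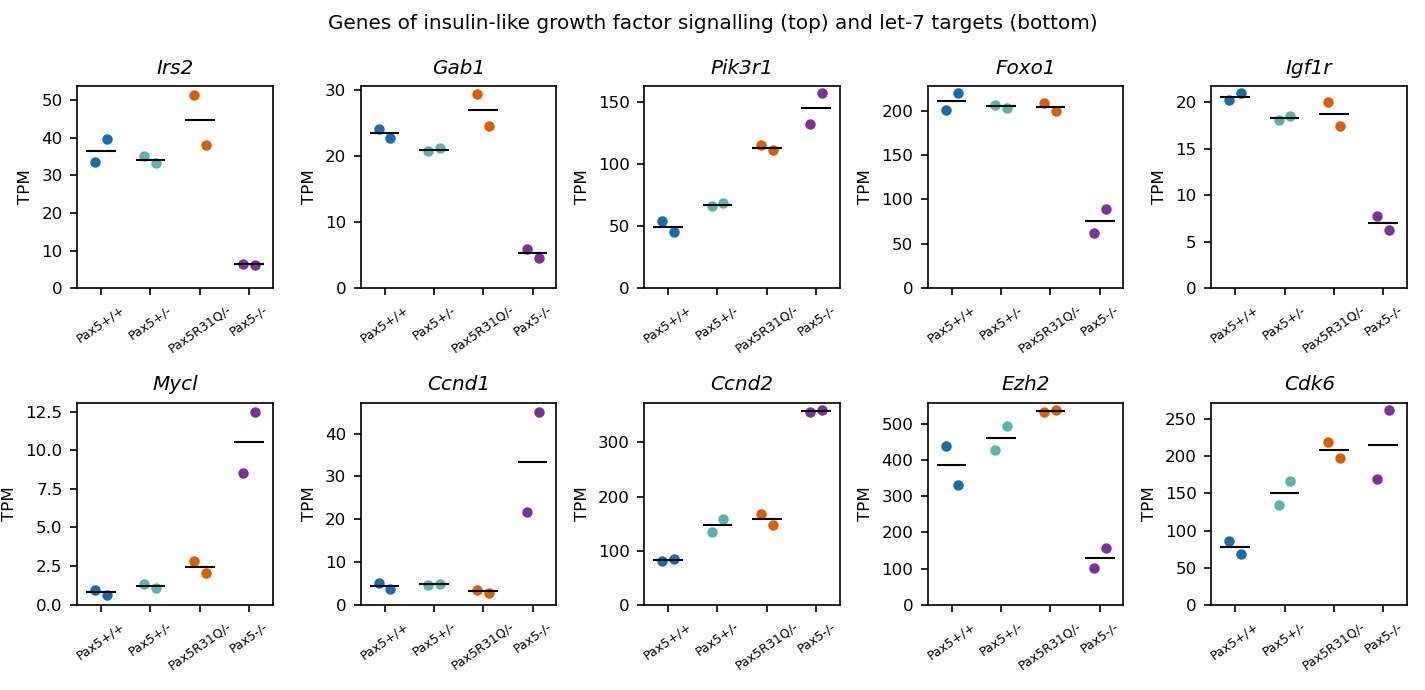
TPM of 5 genes of insulin-like growth factor signalling (top row) and 5 let-7 targets (bottom row) in the 2 libraries of each genotype, with bars at the means; they are the genes of each list with the largest differences between Pax5-/- and Pax5+/+. Irs2, Gab1, Foxo1, Igf1r and Ezh2 are lowest in Pax5-/-, and Ccnd2 is highest there at 357 and 360 TPM.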

How the data were processed

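The authors aligned RNA-seq reads to mm10 (STAR 2.4.2 in the submitters' processing notes), counted them per RefSeq gene with featureCounts and deposited TPM values. Peaks were called by the authors with MACS against a Rag2(-/-) input after alignment with Bowtie2 2.3.5.1, filtered on their p-value, and the deposited files give only positions. Groups came from the labels, where the ChIP-seq library of Pax5R31Q/- cells carries a second description that names Rag2, and its listed genotype was followed.

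The 9 genes and all gene lists were chosen with earlier results of these data known. log2(TPM + 1) was fitted with limma 3.58.1 in R 4.3.3 (eBayes with trend, two-sided, Benjamini-Hochberg) over 13436 genes with at least 1 TPM in 1 library and all 4 genotypes, and tested on simulated data. The deposited values are TPM and not counts, so limma took the place of the authors' DESeq2 test, which was not run. Whole reads were recovered from TPM steps for 18206 of 18206 genes above 0 in at least 2 libraries, and for 0 of 17371 genes after the values were shifted slightly at random as a control. These reads entered limma-voom as an alternative. The lists name at most 5 genes each, those with an adjusted p under 0.05 and the largest change over 2-fold in Pax5-/- against Pax5+/+. Positions, UTRs and sequences are from RefSeq GRCm38.p6, and seed sites were counted in 1 transcript per gene. Promoter sequences of H19, Arid3a and Igf2bp1 were not analysed here. Python 3.11.15, pandas 2.3.3, pysam 0.24.0 and matplotlib 3.10.9 were used. Labels give no replicate numbers, and libraries were numbered in accession order.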

Additional observations from a re-analysis of the deposited data

How the results depend on the processing

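The count of tested genes past the threshold depended on the processing most in Pax5R31Q/- against Pax5+/-. In Pax5-/- against Pax5+/+ it was 1 instead of 3 with only the 2 genotypes compared, and 2 to 3 with 1 library left out. In Pax5R31Q/- against Pax5+/- the count of 1 became 0 without the filter on low TPM, with only the 2 genotypes compared and with any library left out (0 to 0). In Pax5R31Q/- against Pax5-/- it was 2 to 3 with 1 library left out. Over all genes, voom called 79 higher and 109 lower in Pax5R31Q/- against Pax5+/- (36 and 47 by limma) and 7 and 25 in Pax5+/- against Pax5+/+ (0 and 3). The H19 difference between Pax5R31Q/- and Pax5+/+ of 2.98 was 4.18 with a pseudocount of 0.1, 4.36 by voom, and 2.5 to 3.45 with 1 library left out. The cause of these shifts was not tested, except that fewer libraries leave fewer degrees of freedom. The 11 of 30 peaks not met (36.7%) became 7 of 18 within 10 kb (38.9%), 18 of 50 within 100 kb (36.0%), 7 of 26 without peaks at least 50% repeat-masked (26.9%) and 13 of 30 when both peaks had to overlap by 50% (43.3%). Of 290 values of single genes under alternatives, 9 turned their sign, each from a difference that had not passed or was not tested. They were Hmga2 in Pax5-/- against Pax5+/+ (0.24 without Pax5-/- replicate 2, -0.77 to 0.24 with 1 library left out), Igf2r in Pax5+/- against Pax5+/+ (-0.01 with median-ratio scaling and by voom, -0.15 without Pax5+/+ replicate 2, -0.07 without Pax5+/- replicate 2, up to 0.19), Arid3a in the same comparison (0.02 without Pax5+/+ replicate 1, 0.08 without Pax5+/- replicate 2, down to -0.13), Igf2bp3 in Pax5R31Q/- against Pax5-/- (0.00 with median-ratio scaling) and Igf2r in Pax5R31Q/- against Pax5+/+ (-0.04 without Pax5+/+ replicate 2, up to 0.30). No paired analysis was possible because the labels carry no replicate numbers. Igf2, Lin28b and Igf2bp1 are limited by depth, and H19 in Pax5+/+ rests on 15 reads per library.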

Other observations

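Of 60 listed imprinted genes, 29 were tested, and in Pax5-/- against Pax5+/+ 6 were higher and 5 lower by limma, beside 35.9% of all genes called, and 8 were higher and 7 lower by voom (51.7%, beside 39.2% of all genes), with a median log2 difference by limma of 0.03 beside -0.11 for all genes. Between Pax5R31Q/- and Pax5+/-, limma and voom each called 0, and 2 had an unadjusted p under 0.05 by limma. Cdkn1c, a maternally expressed inhibitor of the cell cycle that lies in the cluster next to H19, was at 7.03 and 8.25 TPM in Pax5+/+, 5.04 and 5.20 TPM in Pax5+/-, 3.70 and 3.63 TPM in Pax5R31Q/-, and 0.873 and 0.765 TPM in Pax5-/-. The 4 genotypes of Cdkn1c did not overlap, and it differed by -2.25 between Pax5-/- and Pax5+/+ (SE 0.16, adjusted p = 6.56e-05 by limma) and by -0.39 (SE 0.16, adjusted p = 0.538) between Pax5R31Q/- and Pax5+/-. Begain (7.47 and 12.4 TPM in Pax5+/+ and 0.662 and 0.652 TPM in Pax5-/-), Ddc (14.3 and 7.83, and 1.48 and 1.73 TPM) and Sgce (9.58 and 8.33, and 1.06 and 2.04 TPM) were lower in Pax5-/- as well. Ddc and Gab1 are imprinted only in certain tissues. The marker differences between Pax5-/- and the other genotypes hold for these lists too, and their part was not tested.

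Of 10 listed relatives and partners of Arid3a and Hmga2, 8 were tested, with 6 lower and 1 higher in Pax5-/- than in Pax5+/+ by limma, beside 35.9% of all genes called, and a median of -0.83. Hmgb2, a chromatin protein of dividing cells, was at 847 and 636 TPM in Pax5+/+, 741 and 856 TPM in Pax5R31Q/- and 303 and 250 TPM in Pax5-/- (difference -1.41, SE 0.17, adjusted p = 0.000617). Btk, a kinase of the B cell receptor pathway that binds Arid3a, was at 146 and 129 TPM, 126 and 122 TPM, and 53.2 and 83.4 TPM in the same genotypes (difference -1.03, SE 0.21, adjusted p = 0.00753). Arid3a itself went up in Pax5-/-, as given above, and limma and voom each called 0 of the 8 between Pax5R31Q/- and Pax5+/-, where 0 had an unadjusted p under 0.05 by limma.

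Embryonic globins, whose levels were read as another sign of a fetal program, were near 0. Hbb-bh1 was highest in a Pax5R31Q/- library at 1.29 TPM, which is 11 reads, with 3 reads in the other Pax5R31Q/- library, 3 and 7 in Pax5+/-, 0 and 2 in Pax5+/+, and 0 and 1 in Pax5-/-. Hba-x had 1 read at most in any library, and Hbb-y was above 0 in 1 library.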
